A study of Mus musculus with 11 samples.

Results

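Collagen folding and modifying enzymes are described here across the mesenchymal cells of the mouse liver. The 10 genes, taken by symbol from the 27998 genes of the 10X tables, were the prolyl 4-hydroxylase subunits P4ha1, P4ha2 and P4hb, the lysyl hydroxylases Plod1 and Plod2, the chaperones and isomerases Serpinh1, Fkbp10 and Ppib, the procollagen C-proteinase Bmp1 and its enhancer Pcolce. All 10 were found. They were followed over cell types and injuries, and against the level of Col1a1, the gene of the main type I collagen chain, in the same cells. The mice were C57BL/6 males of 10 to 16 weeks carrying Pdgfrb-BAC-eGFP, a transgene in which Pdgfrb sequences drive GFP, and every group, controls included, carried it. GFP+ cells negative for CD45 and CD102 were sorted, so cells without Pdgfrb activity were outside the gate. Injury was by carbon tetrachloride (CCl4), a hepatotoxin given intraperitoneally in olive oil at 0.25 µl per g, or by bile duct ligation (BDL). Acute CCl4 was 1 dose with harvest at 72 h, chronic CCl4 was 2 doses a week for 6 weeks with harvest 48 h after the last, and BDL lasted 14 days. There were 5 droplet (10X 3′) libraries, each from 3 pooled mice. Digestion protocol 2, a liver perfusion with a density gradient, gave uninjured, 72 h CCl4 and 6 wk CCl4 libraries, and protocol 1, an ex vivo digestion, gave uninjured and 6 wk CCl4 libraries. Full-length Smart-seq2 (SS2) data came from 6 plates with wells of uninjured, BDL or 6 wk CCl4 mice.

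Collagen chains are modified and folded in the endoplasmic reticulum (ER) before export. Prolyl 4-hydroxylase, a tetramer of P4ha and P4hb subunits, hydroxylates prolines and so makes the triple helix stable at body temperature, while the Plod enzymes hydroxylate lysines that later carry cross-links. Serpinh1 (HSP47) holds the folded helix, Fkbp10 and Ppib act on proline bonds, and Bmp1, helped by Pcolce, removes the C-propeptide outside the cell so that fibrils can form. Hepatic stellate cells (HSCs) are the vitamin A-storing cells of the sinusoids and turn to making collagen after injury, whereas fibroblasts (FBs) lie around the portal tract and vascular smooth muscle cells (VSMCs) in vessel walls.

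The promoters of 3 members are shown because these genes were called in HSC-like cells after acute injury, Serpinh1 and P4hb higher and P4ha1 lower, and are in the RefSeq promoter table. Fkbp10, which had the highest ratio there, is not in that table. Each run holds 250 bases before and 50 after the start of the gene, read 5′ to 3′ on the strand of the gene from RefSeq on GRCm38.p6. The windows are chr7:99353190-99353489 on the minus strand for Serpinh1, chr11:120573204-120573503 on the minus strand for P4hb and chr10:59323046-59323345 on the plus strand for P4ha1. Capitals mark matches to ACGTG, the core of the hypoxia response element, on either strand, and to the CCAAT box.
Serpinh1: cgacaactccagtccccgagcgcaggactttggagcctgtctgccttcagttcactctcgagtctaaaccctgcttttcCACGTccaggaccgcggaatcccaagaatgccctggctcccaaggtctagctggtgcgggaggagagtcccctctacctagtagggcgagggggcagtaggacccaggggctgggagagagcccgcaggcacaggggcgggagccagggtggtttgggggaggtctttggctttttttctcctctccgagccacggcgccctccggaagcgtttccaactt
P4hb: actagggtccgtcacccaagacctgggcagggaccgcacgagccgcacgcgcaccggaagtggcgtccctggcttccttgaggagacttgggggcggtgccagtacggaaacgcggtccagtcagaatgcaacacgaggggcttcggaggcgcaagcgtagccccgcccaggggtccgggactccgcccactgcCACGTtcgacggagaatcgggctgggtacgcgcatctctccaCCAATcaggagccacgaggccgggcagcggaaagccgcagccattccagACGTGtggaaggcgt
P4ha1: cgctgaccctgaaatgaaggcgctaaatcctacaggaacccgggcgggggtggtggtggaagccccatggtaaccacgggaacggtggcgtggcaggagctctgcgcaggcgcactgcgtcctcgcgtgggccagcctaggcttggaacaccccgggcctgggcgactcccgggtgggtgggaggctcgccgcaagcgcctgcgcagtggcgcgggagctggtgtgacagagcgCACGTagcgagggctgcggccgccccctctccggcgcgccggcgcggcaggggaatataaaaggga
The ACGTG core lay at -171 in Serpinh1, at -56 and 36 in P4hb and at -16 in P4ha1, counted from the start site. It was present in 5 of the 7 member promoters in the RefSeq table, the other carriers being P4ha2 and Ppib, and in 19.6% of 32851 mouse promoters of the same length. CCAAT was found in 2 of 7, P4hb and Ppib, against 37.4% of all promoters. The heat shock element core GAANNTTC was found in 1 of 7, Plod1, against 7.86%, and the ER stress element (CCAAT, 9 bases of any kind, then CCACG) in 0 of 7 against 0.119%. All motifs were searched on both strands, and a CACGTG run would count once as a match to the core. A match is a run of letters and says nothing of binding.

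The 10X libraries kept 5454 to 7310 cells and held between 25965670 and 86664085 unique molecular identifiers (UMIs, counts of single mRNA molecules), with medians of 4300 to 11344 UMIs per cell. Levels are given as UMIs of a gene per 1000000 UMIs of a class in a library (CPM), with exact 95% Poisson intervals that cover counting error only. With 1 pooled library per condition the 10X differences had no replicate check and no test. A 10X difference between conditions or classes was called from a fold of 1.5 in genes that reached 20 CPM on either side. Between groups of cells within a class, genes had to reach 20 CPM over all cells of the class instead, with at least 1 UMI in the lower group. Clusters were named from fixed marker genes, by a score set after the clusters were seen. HSC-like cells numbered 6850, 7295 and 5431 in the uninjured, 72 h and 6 wk libraries of protocol 2, FB-like cells 4054 and 2638, and VSMC-like cells 1584 and 2901, in the uninjured and 6 wk libraries of protocol 1. Against these names, the summed HSC markers were at 27609 CPM in uninjured HSC-like cells and 696 in uninjured FB-like cells, FB markers at 31.3 and 11101, and VSMC markers at 594 and 546, against 35963 in VSMC-like cells. A cluster of 190 cells, all of them called doublets, stayed unnamed. Library pairs shared 33 to 74 barcodes with 0 identical profiles. The SS2 plates kept 321 to 352 of 382 wells each, at median depths of 392996 to 462650 reads per well.

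Serpinh1, the collagen-specific chaperone, was read in nearly all cells and was called higher in HSC-like cells after acute injury. Its level in HSC-like cells was 1589 CPM in uninjured mice [1577, 1600], 2946 at 72 h [2935, 2957] and 2174 at 6 wk [2162, 2187], so that the chronic level lay between the other two. FB-like cells held 2648 CPM uninjured and 2233 at 6 wk, and VSMC-like cells 755 and 746. The uninjured FB-like level was above the uninjured HSC-like level, but the 2 classes came from different digestions, which cannot be told apart from the cell type. Within protocol 1, Serpinh1 was 3.51-fold higher in FB-like than in VSMC-like cells of the uninjured library and 2.99-fold higher at 6 wk.

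**Figure D1:**
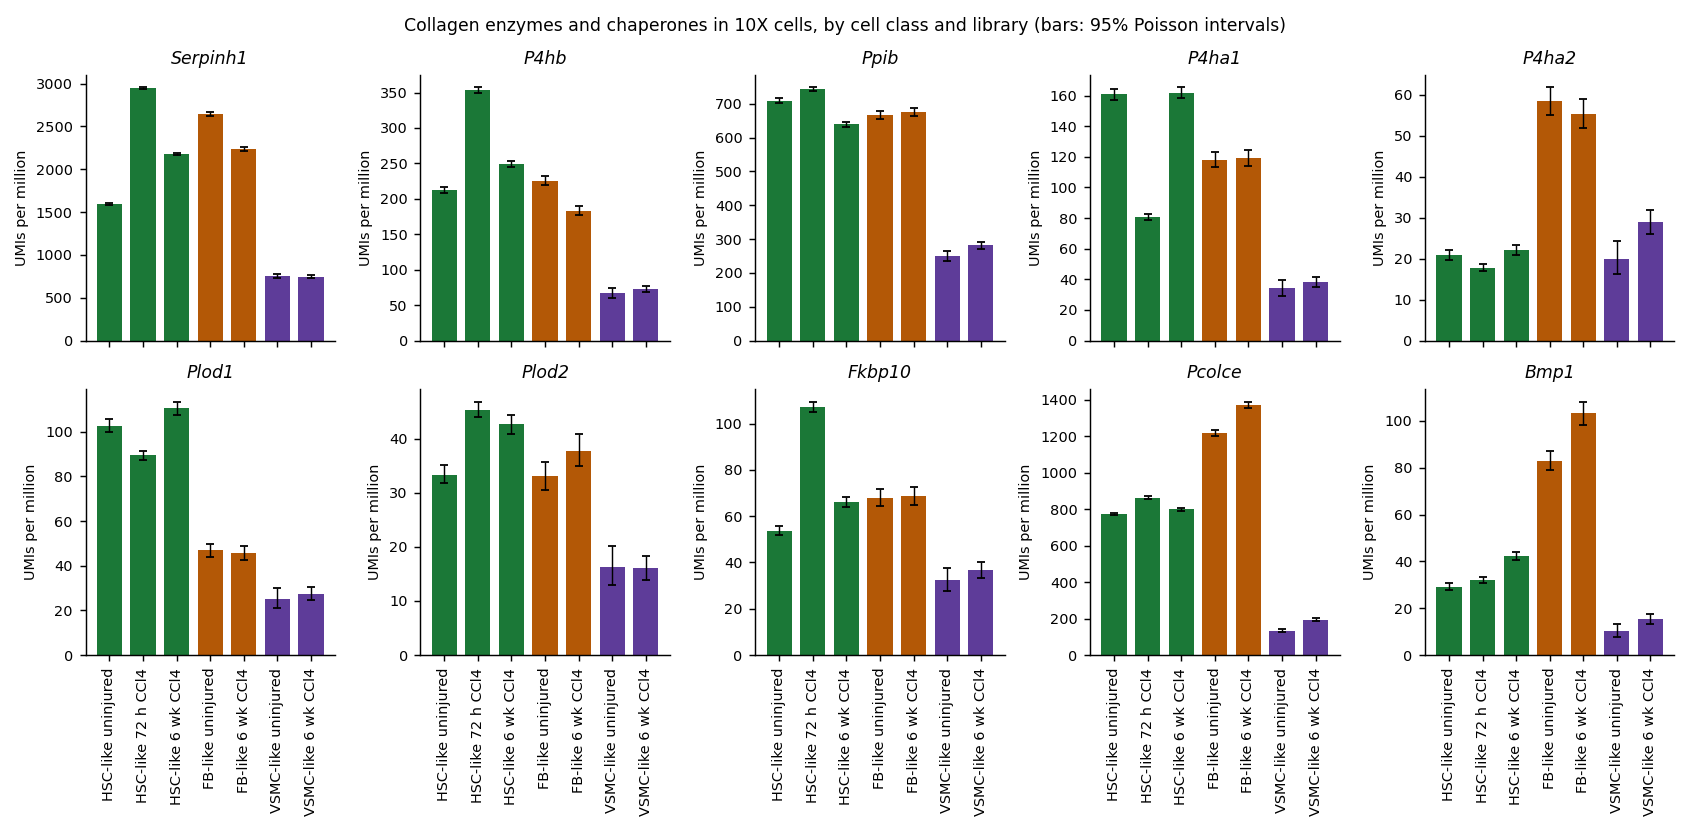
Level of each of the 10 genes in CPM (bars, linear axis from 0) in HSC-like, FB-like and VSMC-like cells of each 10X library, with exact 95% Poisson intervals. Serpinh1 in HSC-like cells went from 1589 to 2946 CPM at 72 h, P4ha1 from 161 to 80.9 CPM, and all 10 genes were lower in VSMC-like than in FB-like cells of both protocol 1 libraries.

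All 10 genes were higher in FB-like than in VSMC-like cells by at least 1.5-fold, both in the uninjured library, where 28.8% of 6431 genes were, and in the 6 wk library, where 24.3% of 6570 were. The difference was widest for the extracellular pair. Pcolce differed 9.06-fold uninjured (1217 against 134 CPM) and 7.10-fold at 6 wk, and Bmp1 8.21-fold (82.9 against 10.1 CPM) and 6.78-fold. It was narrowest for the lysyl hydroxylase Plod1, at 1.87-fold and 1.66-fold. Because classes were made by clustering, these values are descriptive. In SS2, over 15 portions that held both classes (a portion being the wells of 1 mouse on 1 plate), FB-like wells lay above VSMC-like wells in 15 of 15 for Bmp1, Fkbp10, P4ha1, P4hb, Pcolce, Ppib and Serpinh1, in 12 of 15 for Plod1 and Plod2, and in 10 of 15 for P4ha2.

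At 72 h after CCl4, 3 of the 10 genes were called higher and 1 lower in HSC-like cells, against 13.3% of 6229 genes higher and 26.3% lower. The 3 were chaperones or a structural subunit of the hydroxylase, namely Fkbp10, Serpinh1 and P4hb, and the gene called lower was P4ha1, the catalytic subunit. The median ratio of injured over uninjured CPM was 1.104 for the members and 0.862 for all genes tested, so the whole distribution was shifted down on this scale. Scaling both libraries by the median ratio of genes instead moved every ratio up, to 2.07 for Serpinh1, and left P4ha1 at 0.562.

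Fkbp10, the isomerase needed for lysyl hydroxylation of collagen telopeptides, went from 53.8 to 107 CPM, a ratio of 1.99 [1.91, 2.09]. Serpinh1 had a ratio of 1.85 [1.84, 1.87]. P4hb, which is also the general protein disulfide isomerase, went from 212 to 354 CPM, a ratio of 1.67 [1.63, 1.71]. These 3 genes ranked at the 93.4, 92.4 and 90.1 percentile of all ratios, in that order. P4ha1 went the other way, from 161 to 80.9 CPM, a ratio of 0.503 [0.487, 0.520]. Cells of the 72 h library held more UMIs, and per cell P4ha1 was at 1.09 UMIs uninjured and 0.959 at 72 h, while Serpinh1 was at 10.8 and 34.9. On the per-cell scale the difference in P4ha1 was therefore smaller than on the CPM scale.

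The other members moved less. The second catalytic subunit P4ha2 was at 20.8 and 17.8 CPM, a ratio of 0.854 [0.788, 0.927]. Plod1, the lysyl hydroxylase of the helix, was at 103 and 89.6 CPM, and Plod2, that of the telopeptides, at 33.4 and 45.4 CPM with a ratio of 1.36 [1.28, 1.44]. Pcolce had a ratio of 1.12, Bmp1 of 1.09 and Ppib of 1.05. None of these 6 reached the fold used here.

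**Figure D2:**
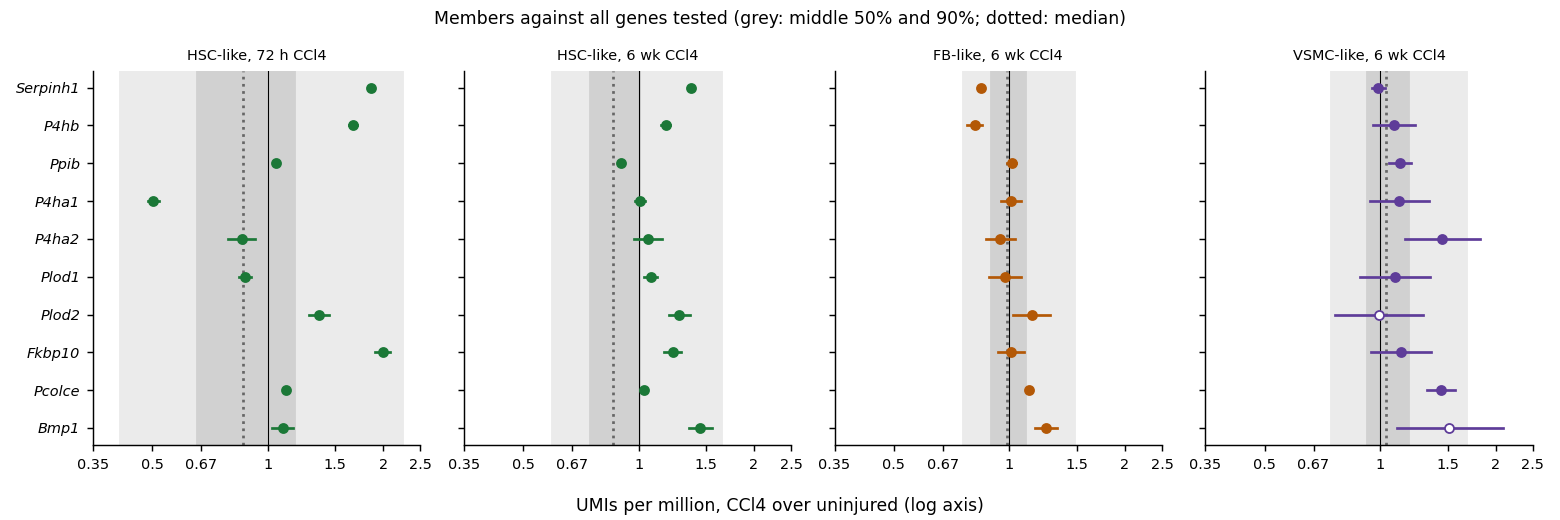
Ratio of injured over uninjured CPM (log axis) for each gene in 4 comparisons of 10X classes, with 95% intervals from counts. Grey bands hold the middle 50% and 90% of all genes tested, the dotted line is their median, and open circles are genes under 20 CPM. At 72 h Fkbp10, Serpinh1 and P4hb sit at 1.99, 1.85 and 1.67 and P4ha1 at 0.503.

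The substrate genes differed more than the enzymes. Col1a1 in HSC-like cells was at 201 CPM uninjured, 2152 at 72 h and 606 at 6 wk, ratios of 10.7 and 3.01, and all 5 fibrillar collagens that passed the level filter were called higher at 72 h (Col1a1, Col1a2, Col3a1, Col5a1 and Col5a2). Summed over genes, fibrillar collagen CPM per member CPM was 0.617 uninjured, 1.81 at 72 h and 0.903 at 6 wk. In FB-like cells, where Col1a1 was at 1490 CPM uninjured and 1824 at 6 wk, it was 1.41 and 1.60, and in VSMC-like cells 0.487 and 0.538.

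Other genes of the pathway were counted from lists. Of 10 sister genes that passed, 2 were higher at 72 h, Crtap, a partner of Ppib in prolyl 3-hydroxylation, from 116 to 178 CPM, and the collagen galactosyltransferase Colgalt1, from 89.8 to 135 CPM. P3h3 and Fkbp14 were lower, with ratios of 0.610 and 0.620. Of 11 procollagen export genes, the ER retrieval receptor Kdelr3 (40.6 to 124 CPM) and the transcription factor Creb3l1 (ratio 1.65) were higher and the coat protein Sec23a lower (0.487). Of the general ER chaperones 0 of 11 were higher and 5 lower, among them Hspa5 (BiP) from 962 to 363 CPM and Canx (calnexin) at 0.471. Summed over the class, P4hb and Serpinh1 were thus higher at 72 h while Hspa5 was lower.

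Several other gene groups moved with the 72 h library. Of the heat shock genes, a group whose inducers also act on Serpinh1, 8 of 9 were lower (summed level 3622 CPM uninjured, 1437 at 72 h and 3552 at 6 wk), as were 6 of 9 immediate early genes. Proliferation genes were higher in 5 of 5, from 28.7 to 331 CPM, and 1010 of 7295 HSC-like cells were called dividing, against 28 of 6850 uninjured. Without dividing cells the ratio was 1.88 for Serpinh1, 1.61 for P4hb and 0.496 for P4ha1. The HSC markers were lower in 6 of 8 (27609 to 6353 CPM) and the FB markers higher in 3 of 3 that passed. Most 72 h cells were of a cluster led by Cthrc1, Plagl1, Ltbp2 and Col1a1 (4555 cells), while most uninjured cells were of 2 other HSC-like clusters (3818 and 1783 cells). Hepatocyte markers were at 62.1, 43.9 and 62.4 CPM in sum over the 3 libraries, endothelial markers at 3.54, 2.30 and 2.33, and leucocyte markers at 2.48, 13.5 and 8.51, with 2, 2 and 1 of 6 at 0. The part of these groups in the member ratios was not tested beyond leaving out dividing cells or cells with non-mesenchymal markers.

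At 6 wk, no member was called in HSC-like cells in either direction, where 6.19% of 6011 genes were higher and 11.3% lower. The largest ratios were those of Bmp1, at 1.45 [1.35, 1.55], and Serpinh1, at 1.37 [1.36, 1.38]. Bmp1 was at 29.2 and 42.3 CPM, from 1356 and 2193 UMIs. Plod2 (1.28), Fkbp10 (1.23) and P4hb (1.18) lay above 1, and P4ha1, at 161 and 162 CPM, was level with the uninjured library. The member median was 1.13 and that of all genes 0.857, and with median-ratio scaling both Bmp1 (1.67) and Serpinh1 (1.58) passed the fold. Most 6 wk HSC-like cells were of 3 clusters (2179, 1361 and 1323 cells), the first led by Egr2, Adamts4, Mt2 and Cxcl10, which are stress and immune genes in part. The HSC markers were at 15244 CPM in sum and the FB markers at 548 CPM, against 31.3 CPM uninjured, and their part was not tested. Of the sister genes 1 of 10 was higher, the prolyl 3-hydroxylase P3h2 at 1.69. Both injury ratios share the uninjured library.

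In FB-like cells at 6 wk no member was called, against 4.65% of 6005 genes higher and 1.83% lower. Serpinh1 was at 2648 and 2233 CPM, a ratio of 0.843 [0.832, 0.854], and P4hb at 226 and 183, a ratio of 0.811 [0.775, 0.849]. The extracellular pair lay above 1, with Bmp1 at 82.9 and 103 CPM (1.25 [1.16, 1.33]) and Pcolce at 1217 and 1371 CPM (1.13). VSMC markers were higher in 6 of 6 in these FB-like cells (546 to 1439 CPM in sum), and their part was not tested. In VSMC-like cells 8 of 10 members passed the level filter, Plod2 and Bmp1 staying under 20 CPM, and none was called, against 7.71% of 5811 genes higher and 2.39% lower. Pcolce (134 and 193 CPM) and P4ha2 (19.98 and 28.9 CPM) both had ratios under the fold, at 1.44 and 1.45. Of 11 general ER chaperones 4 were higher there, with Hspa5 at 2.03.

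The question of whether cells with more Col1a1 also held more of its enzymes was asked within each class and library. Cells were ranked by Col1a1 per 10000 UMIs and cut into 4 groups of equal size, and members were compared between the group with the most and the group with the least Col1a1. In uninjured HSC-like cells 0 of 10 members were called (0.704% of 5827 genes were higher and 0.137% lower), although Col1a1 went from 0 to 613 CPM. The largest ratio was that of Plod2, 1.29 [1.12, 1.49], at the 98.2 percentile of all ratios. The smallest was that of P4ha2, 0.977, at the 40.1 percentile. The member median was 1.12 and that of all genes tested 0.994, so the members lay higher than most genes though under the fold. Spearman's rho of Serpinh1 with Col1a1, over cells thinned to 2000 UMIs, was 0.0477 over 6736 cells that share 1 library. This rho was low but at the 99.1 percentile of all genes, whose median was -0.000875.

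In HSC-like cells at 72 h, where Col1a1 went from 242 to 4995 CPM, Bmp1 and Plod2 were higher in the Col1a1-high group and Plod1 was lower, out of 9 members that passed and beside 5.44% of 5353 genes higher and 10.5% lower. Bmp1 went from 23.8 to 40.1 CPM, a ratio of 1.69 [1.51, 1.89], and its level was ordered over all 4 groups (23.8, 28.6, 33.3 and 40.1 CPM). Plod2 was at 32.0, 42.0, 51.2 and 53.4 CPM, a ratio of 1.67 [1.51, 1.84], while Plod1 was at 113, 95.1, 80.2 and 75.02 CPM, a ratio of 0.663 [0.622, 0.707]. Plod2 ranked at the 96.1 percentile of all ratios and Plod1 at the 10.2 percentile. With 10.5% of all genes lower, 1 member lower of 9 is close to the share over all genes. The 2 lysyl hydroxylases, acting on telopeptides and on the helix, were ordered in opposite directions over all HSC-like cells of this library. This was mostly seen in portal cells (position along the lobule is described below). The ratio by Col1a1 level was 2.42 in portal and 1.08 in central cells for Plod2, and 0.699 and 0.914 for Plod1. For Bmp1 it was 1.70 and 1.60. Col1a1 itself differed more in portal (44.4-fold) than in central cells (8.71-fold), and the part of this was not tested. Over all HSC-like cells, Serpinh1 (2800 to 3201 CPM, 1.14), Fkbp10 (93.0 to 125 CPM, 1.34) and Pcolce (962 to 778 CPM, 0.809) stayed under the fold. The rho of Serpinh1 was 0.0847 and that of Pcolce -0.0790 over 7295 cells, against 0.117 (Col5a1) to 0.693 (Col1a2) for the other 4 fibrillar collagens that passed and a median of -0.00996 for all genes.

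The Col1a1-high group at 72 h differed in other ways. From bottom to top, dividing cells were 15.8% and 11.8%, median UMIs 10166.5 and 12616, general ER chaperones 4870 and 3292 CPM, HSC markers 10156 and 4076 CPM, and called doublets 2.63% and 7.19%. The settings run included leaving out dividing cells, leaving out doublets and thinning to 2000 UMIs. Over all settings the ratio of Bmp1 ran from 1.68 to 2.01 and that of Plod2 from 1.67 to 2.18. The part of the ER chaperones and HSC markers in the member ratios was not tested. The ratio of Plod1 lay close to the fold used. It ran from 0.636 to 0.696 over all settings, and with cells ranked by Col1a2, thinned to 2000 UMIs or scaled without fibrillar collagen UMIs it was just short of a call, so that 0 members were lower.

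In HSC-like cells at 6 wk no member was called, against 3.83% of 5409 genes higher and 5.14% lower. Bmp1 (1.34) and Plod2 (1.32) again had the largest ratios and P4ha2 the smallest, 0.742, while Serpinh1 stood at 1.04 with a rho of 0.00268.

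In FB-like cells Serpinh1 was ordered with Col1a1. In the uninjured library Serpinh1 was at 2219, 2453, 2683 and 3283 CPM from the lowest to the highest Col1a1 group, a ratio of 1.48 [1.44, 1.52], just under the fold. No member was called there (2.52% of 5676 genes were higher and 2.2% lower), and 9 of the 10 ratios lay above 1, the exception being Bmp1 at 0.992. At 6 wk Serpinh1 (1787 to 2815 CPM, 1.57 [1.53, 1.62]) and Fkbp10 (54.9 to 92.7 CPM, 1.69 [1.43, 2.00]) were called higher, against 3.67% of 5770 genes higher and 2.39% lower. P4ha2 (1.46), P4hb (1.44) and Pcolce (1.41) lay below the fold. Serpinh1 had a rho of 0.202 over 3870 uninjured cells and 0.211 over 2548 cells at 6 wk, higher than for any other member in those libraries. Median UMIs were 4865.5 and 4608 in the lowest and highest group uninjured, and 6282 and 5985 at 6 wk. The heat shock genes were lower in the highest group, at 2702 and 1945 CPM in sum uninjured and 2487 and 2076 at 6 wk. General ER chaperones were at 4322 and 4337 CPM uninjured and at 4671 and 5360 at 6 wk, where called doublets were 0.606% and 2.73%. The part of these in the member ratios was not tested, except by leaving out doublets and by thinning. Leaving out doublets kept the 6 wk count at 2 members, and thinning gave 1 member higher in the uninjured library. Over all settings the 6 wk ratio ran from 1.45 to 1.91 for Serpinh1 and from 1.35 to 1.71 for Fkbp10. Each of these 2 calls was therefore lost in some setting. The uninjured ratio of Serpinh1 ran from 1.38 to 1.75.

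**Figure D3:**
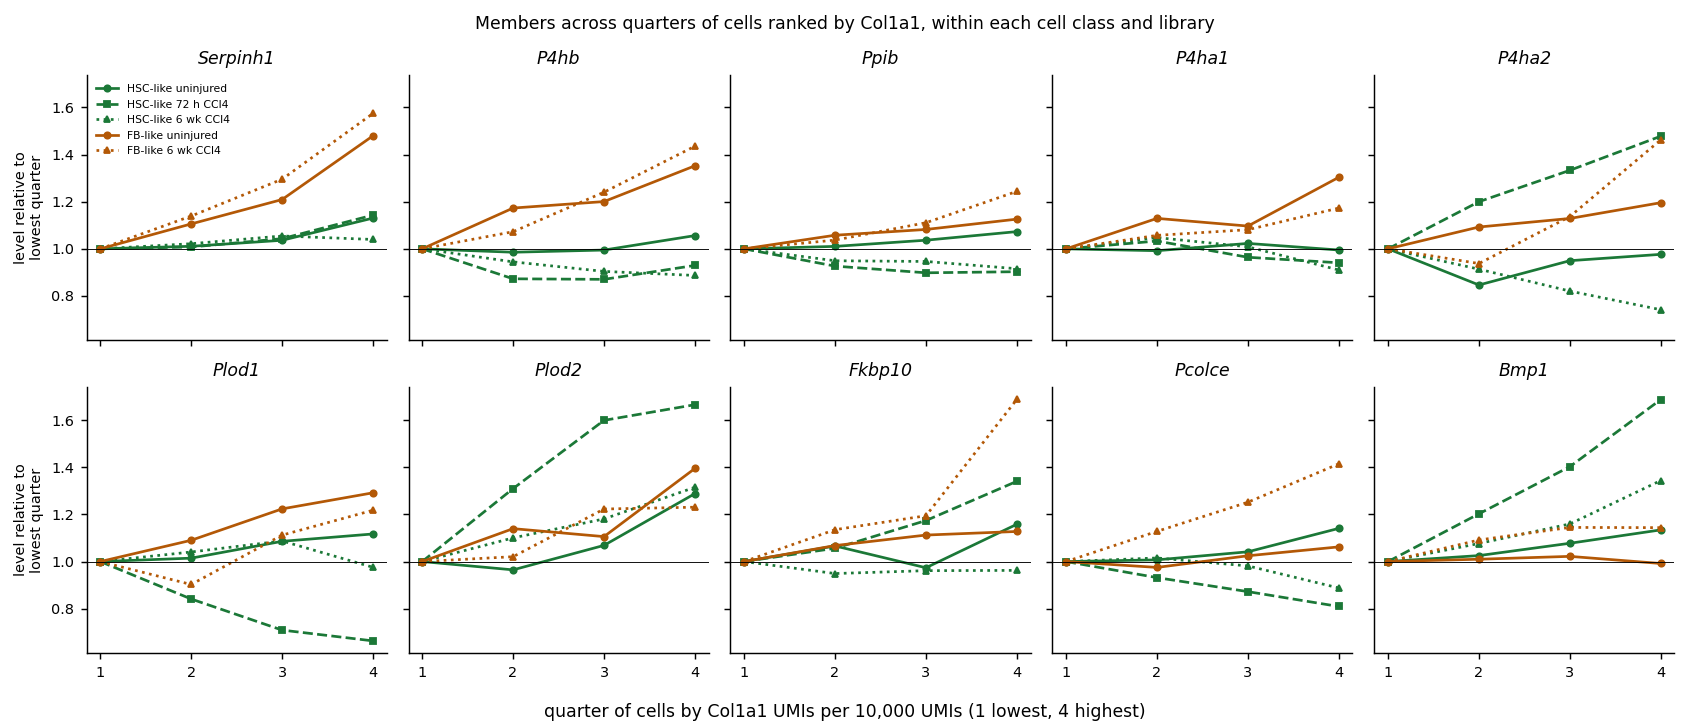
Level of each gene in 4 equal groups of cells ranked by Col1a1, relative to the lowest group (linear axis), for HSC-like (green) and FB-like (orange) cells of uninjured (solid), 72 h (dashed) and 6 wk (dotted) libraries. Serpinh1 climbs to 1.48 and 1.57 in the FB-like libraries and to 1.14 or less in HSC-like cells, where at 72 h Bmp1 reaches 1.69 and Plod1 falls to 0.663.

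In VSMC-like cells, where many cells had no Col1a1 UMI, 0 of 7 members that passed were higher and 1 lower in the uninjured library (4.57% of 5320 genes were higher and 3.36% lower), the latter being Plod1 at 0.635 with an interval that reached 1.06. Below that level, P4ha2 went from 13.2 to 23.5 CPM (1.78 [0.943, 3.48]) and Bmp1 from 4.95 to 14.4 CPM (2.91 [1.12, 8.89]), on few molecules. At 6 wk no member was called of 8 that passed, against 3.75% of 5606 genes higher and 3.03% lower. Pcolce was at 1.48 and Serpinh1 at 1.24. FB markers went from 532 to 901 CPM in sum from lowest to highest group uninjured, and from 691 to 1214 at 6 wk. VSMC markers also went up, from 34756 to 37101 and from 27730 to 33194 CPM. The part of these markers in the member ratios was not tested.

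SS2 gave the relation to Col1a1 a replicate, the portion, though nothing says whether portions on different plates came from different mice. The FB-like wells of each portion were split at their median Col1a1 level, and reads were summed within the low and high part. Serpinh1 passed the test as the only member, with a log2 fold change of 0.61 ± 0.10 (SE) and an adjusted p of 0.00422 (edgeR quasi-likelihood, portion as a term, 14 portions). It was higher in the Col1a1-high wells of 13 of 14 portions. Low parts spanned 406 to 1144 reads per 1000000 reads (RPM) with a median of 748, and high parts 604 to 2514 with a median of 1003, so the ranges overlapped although nearly every portion moved up. The exception was the uninjured portion of plate 2. Over all 11223 genes tested 0.214% were called higher and 0.0356% lower. Leaving out any 1 portion kept the adjusted p of Serpinh1 between 0.000404 and 0.0179.

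Pcolce followed with 0.50 ± 0.11 (adjusted p = 0.0946, 12 of 14 portions higher), and it was called when a single CCl4 portion of plate 3 was left out (adjusted p = 0.0461). P4ha2 was higher in 14 of 14 portions and Plod2 in 12 of 14, with log2 fold changes of 1.43 ± 0.43 and 1.11 ± 0.35, but neither passed (adjusted p = 0.570 and 0.613). Of the 10 members 5 had an unadjusted p under 0.05, a share not counted over all genes. P4ha1 showed no common direction, being higher in 7 of 14. In VSMC-like wells no member passed by edgeR over 15 portions, with 1.41% of 10941 genes called higher and 0.576% lower. Unadjusted, 3 members did, Plod2 (1.07 ± 0.42, adjusted p = 0.356), Serpinh1 (0.31 ± 0.12, adjusted p = 0.298) and Bmp1 (1.16 ± 0.54, adjusted p = 0.560), with no count over all genes. DESeq2 called 1.

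**Figure D4:**
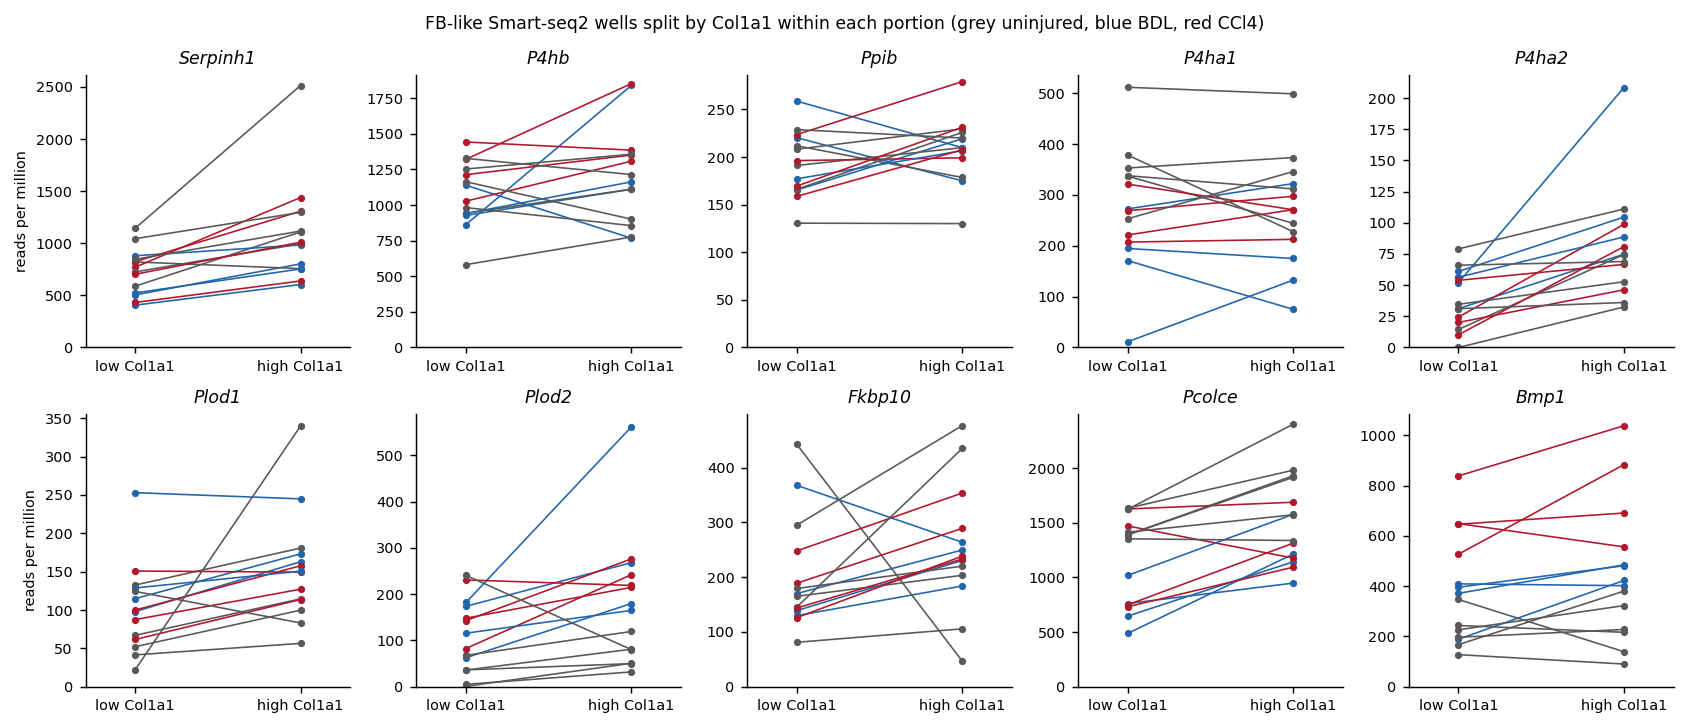
RPM of each gene in FB-like SS2 wells with low and high Col1a1, 1 line per portion (grey uninjured, blue BDL, red CCl4), linear axes from 0. Serpinh1 is higher in the high part of 13 of 14 portions and P4ha2 of 14 of 14, while the lines of P4ha1 run both ways.

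Injury in SS2 was tested between portions of plates 1 to 5, with plate as a term. FB-like and VSMC-like wells both gave 5 uninjured, 5 BDL and 4 CCl4 portions, and the BDL and CCl4 tests share the uninjured ones. Nothing says whether portions on different plates came from different mice, so p-values measure the spread between portions. A further 116 SS2 wells, in a cluster led by Wif1 and Notum, scored best for FB markers but stayed unnamed and entered no class. On plates 1 to 5 these were 4 to 26 uninjured wells per plate beside 17 to 48 FB-like ones, and 1 to 3 BDL wells beside 84 to 110. For CCl4 they were 16 and 18 wells beside 89 and 128, and the part of this uneven loss was not tested. In FB-like wells no member passed after BDL (0.0368% of 13605 genes were called higher and 0% lower) or after CCl4 (0.0294% and 0%) by edgeR. Unadjusted, 5 members were under 0.05 after BDL and 1 after CCl4, and DESeq2 called 2 and 1. The share of all genes under an unadjusted 0.05 was not counted. The all-gene counts of DESeq2, far above those of edgeR, are given in the closing sections. Below, ranges that do or do not overlap are description only, since the share of all genes with separate ranges was not counted.

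Bmp1 in FB-like wells was at 141, 229, 242, 272 and 273 RPM uninjured, at 267, 305, 406, 427 and 439 after BDL and at 590, 669, 735 and 955 after CCl4. The CCl4 and uninjured ranges did not overlap, and each injured portion lay above the uninjured portion of its plate. The log2 fold change was 1.67 ± 0.33 after CCl4 (adjusted p = 0.155) and 0.76 ± 0.27 after BDL (adjusted p = 0.439). In the 10X FB-like cells the CCl4 ratio of the same gene was 1.25.

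The CCl4 portions also differed in the makeup of their FB-like wells. A cluster led by Hp, Saa3 and Cxcl5, of which Hp and Saa3 are acute phase genes, held 140 of 217 FB-like CCl4 wells (64.5%), 22 of 304 BDL wells and 1 of 159 uninjured wells on plates 1 to 5. Outside this cluster Bmp1 was at 150 to 293 RPM after CCl4, overlapping the uninjured range of 141 to 273, with a log2 fold change of -0.026 (adjusted p = 1). With 1 uninjured well in the cluster, its makeup and the injury cannot be told apart there. After BDL the log2 fold change of Bmp1 was 0.81 without the cluster (adjusted p = 0.806), close to the value with it. Mesothelial markers were at 188 to 582 RPM in sum after CCl4 (5 genes, 0 at 0 throughout) against 55.1 to 156 uninjured (1 of 5 at 0 throughout), and HSC markers at 518 to 847 RPM (2 of 8 at 0) against 1118 to 1240 (0 of 8). The part of these markers was not tested.

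Plod2 was at 24.6, 43.6, 57.8, 93.1 and 160 RPM uninjured, at 121, 141, 229, 374 and 398 after BDL and at 175, 178, 212 and 225 after CCl4. All 9 injured portions lay above the uninjured portion of their plate. The log2 fold change was 2.02 ± 0.59 after BDL (adjusted p = 0.347) and 1.17 ± 0.66 after CCl4 (adjusted p = 0.913). Without the Saa3-led cluster these were 2.04 and 0.72, and Plod2 was at 87.9 to 271 RPM after CCl4, overlapping the uninjured range.

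P4ha1 and Pcolce lay lower after BDL. P4ha1 was at 292, 302, 303, 325 and 346 RPM uninjured and at 72.4, 116, 121, 185 and 297 after BDL, a log2 fold change of -1.07 ± 0.36 (adjusted p = 0.418), with 1 BDL portion inside the uninjured range. Pcolce was at 1494, 1655, 1667, 1932 and 2000 RPM uninjured and at 847, 866, 897, 1248 and 1301 after BDL, with no overlap, a log2 fold change of -0.85 ± 0.21 (adjusted p = 0.240). After CCl4, P4ha1 was at 210 to 289 RPM, below each uninjured portion, with a fitted log2 fold change of -0.21 ± 0.42 (adjusted p = 1), and without the Saa3-led cluster at 149 to 352 RPM, overlapping them. Serpinh1 was at 799 to 1171 RPM uninjured, 506 to 928 after BDL and 554 to 1106 after CCl4, overlapping throughout. Among markers of other cells, hepatocyte genes were at 85.6 to 1537 RPM in sum after BDL (6 genes) against 199.9 to 399 uninjured, and cholangiocyte genes at 0 to 389 RPM (6 genes) against 0.153 to 103, with none called. HSC markers were at 381 to 919 RPM after BDL against 1118 to 1240 uninjured, without overlap. The FB markers themselves were at 5058 to 11742 RPM against 8475 to 14062. The part of all these markers in the member values was not tested.

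**Figure D5:**
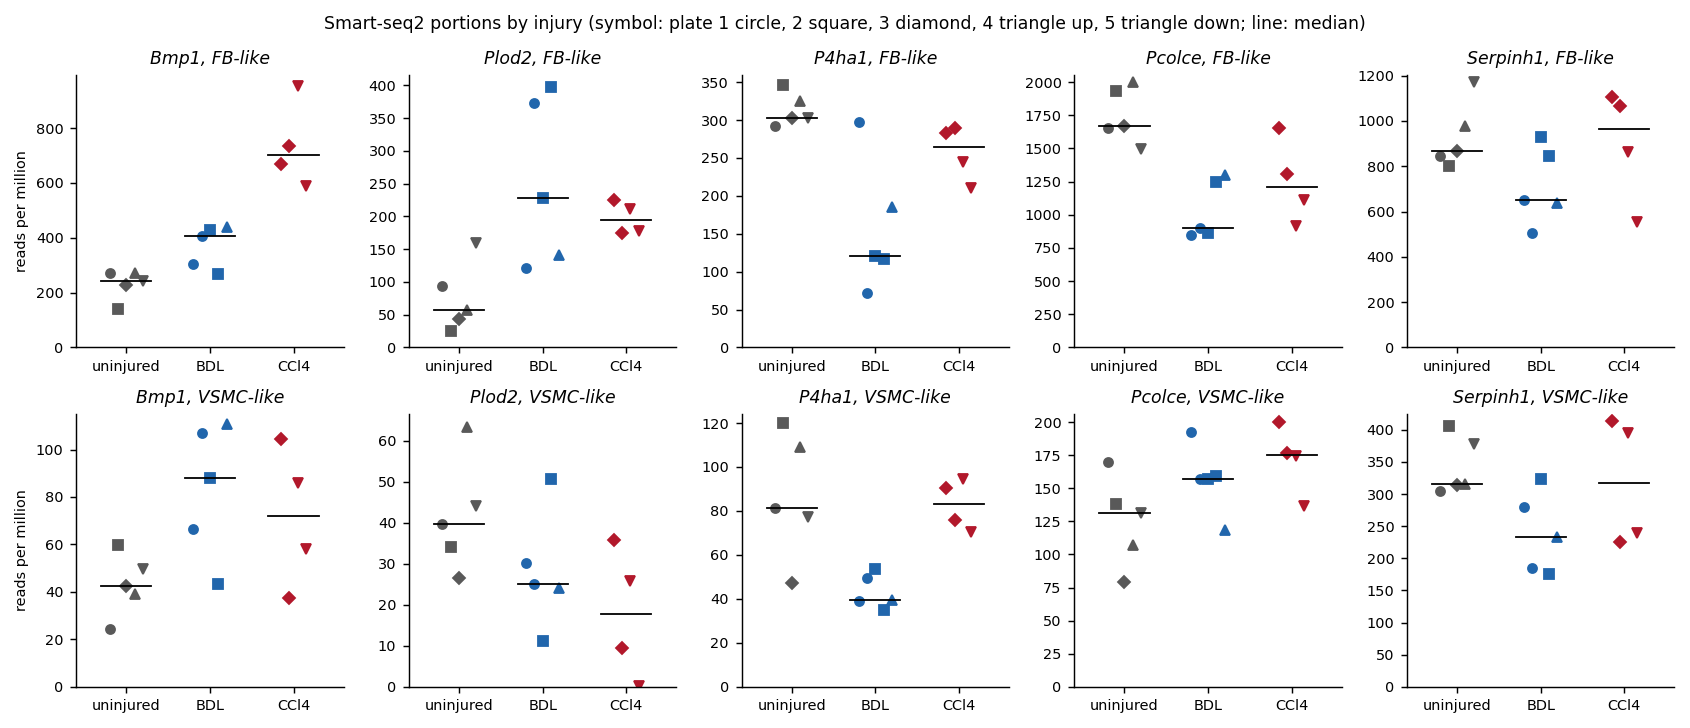
RPM of Bmp1, Plod2, P4ha1, Pcolce and Serpinh1 in each SS2 portion by arm, FB-like wells above and VSMC-like wells below (linear axes from 0, symbols for plates, line at the median). In FB-like wells Bmp1 lies at 590 to 955 RPM after CCl4 against 141 to 273 uninjured, and Pcolce at 847 to 1301 after BDL against 1494 to 2000.

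In VSMC-like wells no member passed after BDL (0.0153% of 13038 genes were called higher and 0% lower) or after CCl4 (0% and 0%) by edgeR. Unadjusted, 3 and 1 members were under 0.05, a share not counted over all genes, and DESeq2 called 1 and 0. P4ha1 was at 47.1, 77.4, 81.4, 109 and 120 RPM uninjured and at 34.7, 39.1, 39.4, 49.4 and 53.6 after BDL, a log2 fold change of -1.17 ± 0.27 (adjusted p = 0.322). Each BDL portion lay below the uninjured portion of its plate. FB-like and VSMC-like portions of 1 mouse are not independent. After CCl4, Ppib was the member whose ranges did not overlap, at 95.4, 97.0, 117 and 119 RPM against 70.8, 74.2, 74.6, 88.8 and 91.2 uninjured. It lay above the uninjured portion of its plate in 4 of 4, with a fitted log2 fold change of 0.28 ± 0.25 (adjusted p = 1). Pcolce was at 136 to 200 RPM against 79.6 to 170 uninjured (0.74 ± 0.26, adjusted p = 1).

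Position along the lobule was read from the portal and central gene lists of the study, which hold no member. HSC-like cells of each library were ranked by the difference of these scores, and the most central of 3 equal groups was set against the most portal. No member was called in the uninjured (2.13% of 5828 genes higher and 3.19% lower), 72 h (3.66% and 4.99% of 5353) or 6 wk library (4.64% and 7.17% of 5409). Col1a1 was 1.18, 1.59 and 3.21 times higher in central cells in these libraries. P4hb lay lower in central cells in all 3, at 0.776, 0.743 and 0.774, while Plod2 lay higher at 1.24, 1.34 and 1.19 and Serpinh1 stood at 0.892, 0.880 and 0.984. Bmp1 was at 0.966, 1.28 and 1.33. None of these member differences reached the fold in any of the 3 libraries in the main setting, whereas Col1a1 did at 72 h and 6 wk. Over all settings the 72 h ratio of Bmp1 ran from 1.17 to 1.70.

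Correlations between members over cells were low at this depth. In cells thinned to 2000 UMIs the share with a UMI ran from 1.89% for Bmp1 in VSMC-like cells to 99.1% for Serpinh1 in HSC-like cells, and for sparse genes counting noise holds rho near 0. The median rho over their 45 pairs was between 0.00105 and 0.0204 in the 7 sets of cells, with a highest value of 0.171, in FB-like cells at 6 wk. The genes outside the members whose level was most like the mean member score in the 5431 HSC-like cells at 6 wk were Sparc (rho 0.126), a collagen-binding matrix protein, Lgals3bp (0.101), Sod3 (0.0936), the extracellular superoxide dismutase, Plvap (0.0911) and Ecm1 (0.0838), of 5399 genes with at least 20 CPM. Col1a1 ranked 4702 of these with a rho of -0.0176. All values are weak, and cells of 1 library share its depth.

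In SS2 the uninjured HSC-like wells of plate 6 gave a further view of the members, without injury. The 2 portions of 143 and 152 wells held Serpinh1 at 622 and 554 RPM, P4hb at 1019 and 902, P4ha1 at 231 and 282, Plod1 at 276 and 243, Pcolce at 694 and 689 and Bmp1 at 84.1 and 81.4. Plod2 differed more, at 24.5 and 48.9 RPM, as did Col1a1 at 111 and 214.

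The genes lie on 7 mouse chromosomes in GRCm38, P4ha2, P4hb and Fkbp10 on chromosome 11 (starting at 54100095, 120560298 and 100415697) and Plod2 and Ppib on chromosome 9 (92542223 and 66060222). Serpinh1 is on chromosome 7 (99345376-99353239), P4ha1 on 10 (59323296-59373304), Plod1 on 4 (147909753-147936767), Pcolce on 5 (137605103-137613784) and Bmp1 on 14 (70474558-70520234).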

How the data were processed

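The deposited 10X values are UMI counts per gene and cell, made by the authors with Cell Ranger 2.1.0 on mm10 and Ensembl annotation, and the deposited SS2 values are read counts per gene and well, aligned with STAR. In this re-analysis, cells with at least 300 genes and at most 30% mitochondrial UMIs were kept, clustered (2000 variable genes, 10 components, 30 neighbours, Leiden resolution 0.8; scanpy 1.11.5), scored for doublets and named from fixed markers. Doublets were kept, and leaving them out was an alternative. UMIs were summed per class and library. SS2 wells were summed per portion (at least 5 wells) and tested with edgeR 4.0.16 (quasi-likelihood, Benjamini-Hochberg over all genes tested, threshold 0.05), with DESeq2 1.42.0 as an alternative. On simulated data with 200 genes changed 4-fold, the BDL fit recovered 14% for FB-like wells and 27% for VSMC-like wells, and the Col1a1 fit 44.5% and 56%. Alternatives were scaling, filters, thinning, ranking by Col1a2, doublets and leaving out each portion. Plate 6, whose labels do not tie protocols to mice, entered only the Col1a1 split, the comparison of FB-like with VSMC-like wells and the levels of HSC-like wells. All 10 members are named, and other genes come from fixed lists or a rank by likeness. The members and lists were chosen with earlier results of these data known.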

Additional observations from a re-analysis of the deposited data

Results flagged for a closer look

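Of 60 groups of SS2 portions of 4 or 5 samples, 2 held a portion far from the rest, where chance gives about 1 in 20. Both concerned Plod1. In FB-like wells after BDL, a plate 1 portion of 14 wells was at 249 RPM against a median of 140 over 5 portions. In VSMC-like wells after CCl4, a plate 3 portion was at 60.2 RPM against a median of 97.8 over 4 portions.

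In 10X, some members had injury ratios on opposite sides of 1 in different classes or times, and these differences were not tested, with 1 library per condition. In HSC-like cells Plod1 was at 0.872 at 72 h and 1.08 at 6 wk, and Ppib at 1.05 and 0.901. At 6 wk, Ppib was at 1.13 in VSMC-like cells, P4hb was at 1.18 in HSC-like and 0.811 in FB-like cells, and Serpinh1 at 1.37 and 0.843.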

How the results depend on the processing

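In SS2 the plate (injury) or the portion (Col1a1 split) was a term of every fit except the alternative without the plate. In 10X, no paired analysis was possible because each condition had 1 pooled library per protocol. The 10X ratios of Serpinh1 (1.76 to 2.07), Fkbp10 (1.87 to 2.23), P4hb (1.61 to 1.86) and P4ha1 (0.496 to 0.562) at 72 h kept their direction and call under every alternative run, including leaving out dividing cells, chosen after seeing the data.

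Counts of members called changed as follows. Median-ratio scaling gave 2 higher in HSC-like cells at 6 wk. For Col1a1 groups at 72 h, 0 were lower without fibrillar collagen UMIs, after thinning and by Col1a2. At 6 wk, 1 HSC-like member was lower after thinning, by Col1a2 and with 10 groups in place of 4, the last with 2 higher. Uninjured FB-like cells gave 1 higher after thinning, and 2 by Col1a2 and with 10 groups, and those at 6 wk 4 by Col1a2 (3.57% of all genes) and 7 with 10 groups (6.76%). Uninjured VSMC-like cells gave 1 higher without doublets, by Col1a2 and with 10 groups, and 0 lower without doublets and by Col1a2, and those at 6 wk gave 1 by Col1a2 and 2 with 10 groups. Thinning gave 1 member, Bmp1, higher in central HSC-like cells at 72 h.

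In SS2, DESeq2 called Plod2 higher and Pcolce lower in FB-like wells after BDL (1 and 1), Bmp1 after CCl4 (1), P4ha1 lower in VSMC-like wells after BDL (1), and for high Col1a1 it called 3 FB-like members and 1 VSMC-like member. Without the low-count filter, and without the plate term, Bmp1 was also called after CCl4 (1 each). Over 20 alternatives the adjusted p of Bmp1 ran from 7.01e-05 to 1, that of Plod2 after BDL from 0.00720 to 0.932 and that of Pcolce from 0.00556 to 0.932. Ranking by Col1a2 gave 2 members in FB-like wells, and leaving out 1 portion gave 1 to 2.

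All-gene counts depended on the tool, at 5 higher and 0 lower (DESeq2 700 and 143) for FB-like BDL, 4 and 0 (345 and 76) for FB-like CCl4, 2 and 0 (243 and 91) for VSMC-like BDL, 0 and 0 (118 and 89) for VSMC-like CCl4, and 24 and 4 (64 and 27) and 154 and 63 (464 and 196) for the Col1a1 split. Without the filter they were 104 and 56, 65 and 27, 25 and 24, and 1 and 0 for the injury fits, and without the plate term 24 and 9, 87 and 8, and 31 and 14 for the first 3.

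Signs turned only in differences that were not called. Without the plate term the log2 fold change was -0.23 for Fkbp10 (FB-like, BDL), -0.036 for P4ha1 and 0.11 for P4hb (VSMC-like, CCl4). With at least 10 wells it was -0.019 for Fkbp10 and -0.016 for Ppib (FB-like, BDL). DESeq2 gave -0.0047 for Ppib (FB-like, CCl4) and -8.57978e-05 for Plod1 (VSMC-like, BDL), the latter -0.0054 without the filter. Without the Saa3-led cluster, an alternative chosen after seeing the data that called 0 members, it was 0.14 for Pcolce, -0.026 for Bmp1 and -0.0048 for Ppib (FB-like, CCl4). By Col1a2 it was -0.16 for P4ha2 and -0.042 for P4hb in VSMC-like wells. Leaving out 1 portion at a time gave log2 fold changes that crossed 0. In FB-like wells these were -0.14 to 0.20 for Fkbp10 and -0.16 to 0.11 for Ppib after BDL, -0.055 to 0.86 for Plod1, -0.68 to 0.31 for Serpinh1 and -0.16 to 0.20 for Ppib after CCl4, and -0.063 to 0.21 for P4ha1 in the Col1a1 split. In VSMC-like wells they were -0.28 to 0.29 for Plod1 after BDL, -1.27 to 0.33 for P4ha2, -0.029 to 0.50 for Plod1, -0.34 to 0.074 for Serpinh1 and -0.30 to 0.47 for Fkbp10 after CCl4, and -0.044 to 0.13 for Fkbp10 in the Col1a1 split.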

Other observations

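General ER chaperones differed between injuries in a way not followed in the report. In FB-like cells at 6 wk, 2 of 11 were called higher, Hspa5 (BiP) at 1.79 and Manf at 1.51, and in VSMC-like cells 4 of 11, Hspa5 at 2.03, Pdia4 at 1.57, Sdf2l1 at 1.52 and Manf at 1.501. In HSC-like cells at 6 wk none was higher and Canx was lower, at 0.633. Of the procollagen export genes in those HSC-like cells, Sec23a (0.541) and Kdelr2 (0.606) were lower.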
